A study of Sus scrofa with 102 samples.

Results

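Breed type was compared in the liver of female pig fetuses of gestation day 85, with 5 LWDL and 6 LWDM fetuses. These 11 arrays are part of a series of 102 arrays on fat, liver and muscle, and were all arrays labeled as liver of 85-day-old fetuses except 1 of the 12, LWDL replicate 2. LWD sows were Landrace (L), Large White (W) and Duroc (D) crosses, LWDL fetuses had a Landrace (L) sire and LWDM fetuses a Meishan (M) sire, so that both groups shared the LWD background of the dam and differed in the breed of the sire. Each breed type came from 1 boar, and breed, sire and litter cannot be told apart here. On each array the Cy3-labeled RNA of 1 fetal liver was hybridized together with a Cy5-labeled common control, which was a mixture of liver RNA of LWD females. Expression is given as the log2 ratio of fetal liver to this control, and a difference is the mean log2 ratio of LWDM minus that of LWDL fetuses, so that a positive difference means higher expression in LWDM fetuses. The question was which genes the breed types express differently before birth.

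The liver of a late fetus holds hepatocytes that secrete fetal plasma proteins such as alpha-fetoprotein, and it still makes blood cells, so that erythroid and myeloid cells, endothelial cells of the sinusoids and bile duct cells contribute to its RNA. Glycogen is stored toward birth, whereas most oxidation of fatty acids, synthesis of ketone bodies and drug metabolism by cytochromes P450 develop after birth. In such a bulk sample, fewer cells of a type and less RNA per cell cannot be told apart.

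The 11 arrays correlated more within breed types (r = 0.956 to 0.975 across probes) than between them (0.923 to 0.947). Between 68.7% and 72.7% of the probes of an array had a Cy3 signal well above background, and the number of arrays limits the precision. LWDL replicate 2 correlated with the others at only 0.14 to 0.203, and its Cy3 signal followed the adult control on the same array with r = 0.992, against 0.895 to 0.912 on the other 11 arrays. It was left out for this resemblance, and calls lost when it is included are given beside the genes. All 11 hepatocyte markers with a tested probe were above background on every array, with alpha-fetoprotein (AFP) 8.33 ± 0.11 (SD, n = 5) log2 units above the control in LWDL and 8.13 ± 0.21 (SD, n = 6) in LWDM fetuses. None of the 11 was called between breed types. LWDM replicates 1 to 4 were on slide 1, LWDL replicate 1 with LWDM replicates 5 and 6 on slide 2, and LWDL replicates 3 to 6 on slide 3, so slide and breed type largely overlapped.

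Of 29485 probes tested, 427 (1.45%) were called, that is, differed over 2-fold in limma with a p under 0.05 after Benjamini-Hochberg adjustment. LWDM fetuses expressed 209 of them higher (0.709%) and 218 lower (0.739%). The median difference was 1.39 among probes that were higher in LWDM and -1.28 among those that were lower, and 335 of the 427 lay between 2-fold and 4-fold. Differences of over 4-fold were found for 59 probes that were higher and 33 that were lower in LWDM fetuses. For 2760 of all tested probes (9.36%), and 338 of the 427 called ones, the 5 LWDL and 6 LWDM arrays did not overlap. With LWDL replicate 2 included, 244 probes were called. With slide as a fixed block, which rests on LWDL replicate 1 against LWDM replicates 5 and 6, 147 probes were called, 87 of them among the 427.

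**Figure D1:**
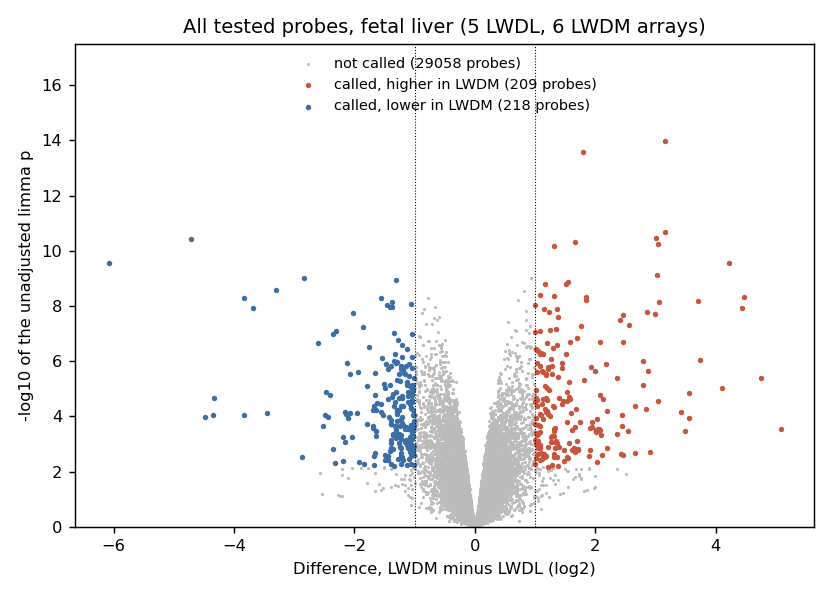
Difference (LWDM minus LWDL, log2, x axis) and -log10 of limma's unadjusted p (y axis) of the 29485 tested probes, with the 209 called higher in LWDM fetuses in red, the 218 called lower in blue and dotted lines at 2-fold. Called probes lie on both sides in like numbers, and most are close to the 2-fold lines.

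Symbols were known for 292 of the called probes, or 227 genes when each gene was represented by its brightest tested probe (111 higher and 116 lower in LWDM fetuses, of 1038 genes with a symbol). Since symbols came from the study's own lists of differing genes, these shares cannot be set against the background of 1.45%. The same holds for the medians of gene lists. Per-array log2 ratios of LWDL fetuses are given below in the order of replicates 1, 3, 4, 5 and 6, those of LWDM fetuses as lowest, median and highest of 6, and differences with ± SE and limma's adjusted p over the 29485 probes. Of the 107 called genes named by rule (those of the gene lists and the largest differences), 56 were under 2-fold after another background correction (normexp with an offset of 50, then loess) and 60 from the Cy3 channel alone. The normexp and loess values of the 56 are given with each list. Cy3 alone ended the same calls except that of OAT, and those of MT2A (0.63), MT1E (0.65), CLEC4G (-0.93), RNF125 (-0.89) and SRGN (0.99) in addition. Some genes that stayed called after normexp and loess had smaller differences there too. These included PRIMA1 (1.55), PANK3 (1.26), EDARADD (-1.23), PAQR8 (-1.61), LIPH (1.75), GLYAT (1.71) and CCK (-1.02), while others, such as RPS21 (3.00), changed little. Of 96 called genes that could be tested with LWDL replicate 2 included, 48 were no longer called, 19 with a value under 2-fold and 29 by adjusted p. With slide as a fixed block 83 of the 107 were lost, 65 of them by adjusted p alone. The 18 that were under 2-fold there were APCS (-0.70), CA5A (0.85), CLEC2B (0.79), CPT1C (-0.57), DTX3L (0.90), GLRX5 (-0.42), HBE1 (-0.99), KL (-0.96), NR0B1 (-0.73), OAT (0.99), OXCT1 (0.99), PPM1K (-0.92), PPP1R3B (0.80), RNF125 (-0.91), RPL31 (-0.98), SDR16C5 (0.69), SLCO3A1 (-0.95) and TOR3A (0.56).

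On the ratio scale, the largest difference toward LWDM among genes whose groups did not overlap was that of SLC47A1, an exporter of organic cations in liver and kidney. Its log2 ratios were 2.81, 0, 0, 2.30 and 3.07 in LWDL fetuses and 5.76, 6.42 and 7.09 in LWDM fetuses. All 6 LWDM arrays lay above the LWDL arrays, and the difference was 4.75 ± 0.58 (adjusted p = 0.000442). Both other probes of SLC47A1 were called in the same direction. PRIMA1, which anchors acetylcholinesterase in membranes, had log2 ratios of -5.07, -3.78, -4.59, -3.97 and -4.73 against -1.06, 0.11 and 0.69. The groups were far apart, with a difference of 4.44 ± 0.31 (adjusted p = 8.97e-06), and no LWDL array was well above background, so that the signal was at least 3.05-fold higher in LWDM fetuses. Such bounds are computed from the Cy3 channel alone, with each dim array set to the dimmest signal it measured well above background, or to the probe's own where that was higher. PANK3, a pantothenate kinase of the first step of coenzyme A synthesis, measured -2.04, -1.19, -2.18, -2.32 and -1.34 in LWDL and 2.10, 2.37 and 2.83 in LWDM fetuses. Its groups did not overlap either (4.23 ± 0.21, adjusted p = 7.92e-07), and since it was not well above background in any LWDL fetus, it was at least 2.22-fold higher in LWDM.

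RPS21, a protein of the small ribosomal subunit, was the most uniform of these genes, at 0.54, 0.51, 0.38, 0.56 and 0.52 in LWDL and 3.49, 3.66 and 3.78 in LWDM fetuses. Every array of a breed type was close to the others of its type, and the difference was 3.15 ± 0.06 (adjusted p = 2.97e-10). PDE4B, a phosphodiesterase that breaks down cyclic AMP, lay between -0.77 and -0.13 in LWDL and between 2.38 and 2.94 in LWDM fetuses (3.15 ± 0.13, adjusted p = 1.99e-07), and its second probe was called as well (1.36). TOR3A, a torsin ATPase of the endoplasmic reticulum, had 4 LWDL arrays between -3.24 and -2.10, LWDL replicate 1 at 0.58 and LWDM arrays between 1.11 and 1.41 (3.43 ± 0.57, adjusted p = 0.00284). With slide as a fixed block, which rests on that LWDL replicate, the TOR3A difference was 0.56 and not called. QTRTD1, a subunit of the enzyme that puts queuine into transfer RNA, ranged from -3.27 to -2.61 in LWDL and from -0.34 to 0.28 in LWDM fetuses (3.05 ± 0.13, adjusted p = 2.29e-07). It was below the background limit on all LWDL arrays and at least 1.43-fold higher in LWDM. ABLIM1, an actin-binding protein, ranged from -0.33 to 0.49 in LWDL and from 2.69 to 3.45 in LWDM fetuses (3.03 ± 0.17, adjusted p = 1.97e-06). ABLIM1 was at 0 on 3 LWDL arrays, was above background on 1 LWDL array, and differed by 0.38 (adjusted p = 0.238) in the Cy3 channel alone, so the size of its ratio is uncertain. TNFAIP8L3, a transfer protein for phosphoinositides, was at 0 on 4 LWDL arrays and at -0.51 on the other, with LWDM arrays from 1.17 to 3.39 (2.88 ± 0.33, adjusted p = 0.000306), which was at least 1.5-fold higher. A ratio of exactly 0 was given by the array software where neither dye rose above background, and 7 called genes named here have such an array. The common control was above background on none of the 11 arrays for 12 called genes (ABCC9, ATP6V0D2, CLCA2, DNER, ESM1, HK2, KL, LIPH, LRRC6, SLC47A1, TNFAIP8L3 and VNN2) and on 1 array for ABLIM1 and RAD51AP1, so their ratios have a denominator at background. Only 1 LWDL array was above background for ABCC9 and ABLIM1, and only 1 LWDM array for CD8A, CPT1C, LRRC6, PCSK5, SLC44A3 and SNRPA1, and the sizes of these differences are uncertain.

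**Figure D2:**
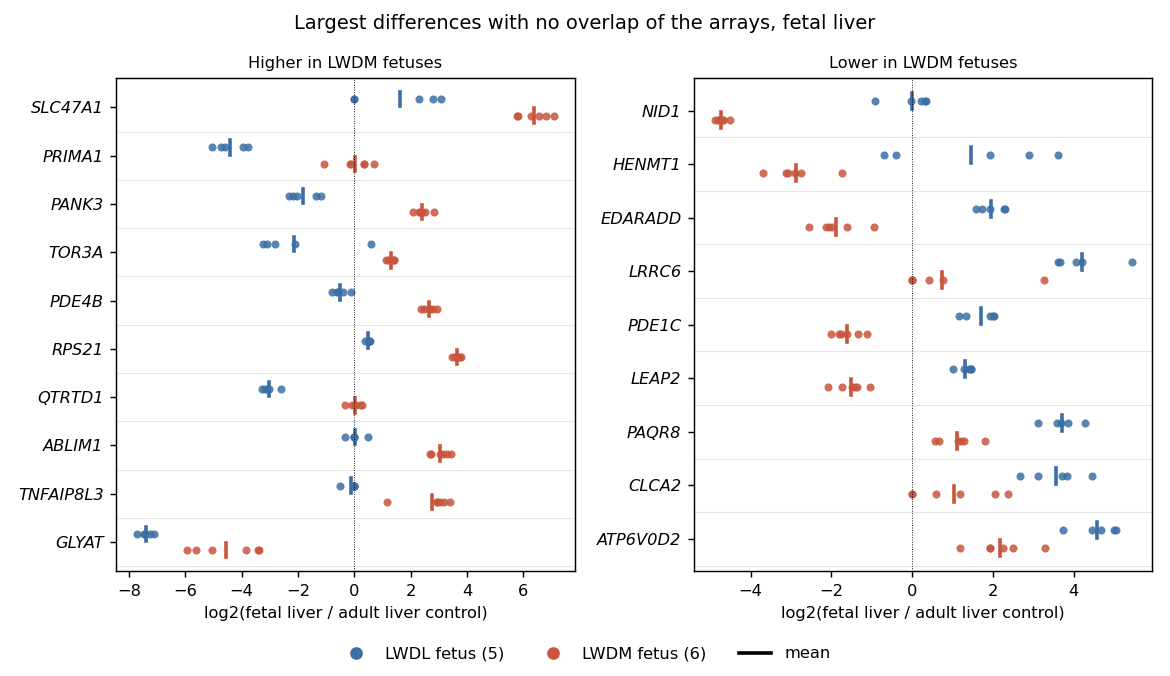
Log2 ratio to the common control on each array for 19 genes among those with the largest differences in each direction whose groups did not overlap. Points are single LWDL (blue) and LWDM (red) fetuses on a log2 axis of each panel and vertical bars are group means, and for every gene all points of one breed type lie beyond those of the other.

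Among genes lower in LWDM fetuses the largest such difference was that of NID1, nidogen, a glycoprotein of basement membranes. NID1 measured 0.33, -0.91, -0.02, 0.34 and 0.22 in LWDL fetuses and -4.89, -4.74 and -4.52 in LWDM fetuses. The 6 LWDM arrays were tightly grouped far below the LWDL arrays (-4.72 ± 0.20, adjusted p = 2.24e-07), and the omitted LWDL replicate 2 was at -4.13. EDARADD, the adaptor of the ectodysplasin receptor, had 2.31, 1.57, 2.27, 1.92 and 1.73 against -2.55, -2.02 and -0.95. No LWDM array was well above background, so EDARADD was at least 2.21-fold lower in LWDM (-3.84 ± 0.25 on the ratio scale, adjusted p = 5.79e-06). NID1 and EDARADD are near neighbors in the pig genome, with 2 genes between them in the RefSeq annotation of Sscrofa11.1.

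HENMT1, a methyltransferase of small RNAs, varied widely among LWDL fetuses, at 2.91, 3.60, -0.70, -0.40 and 1.93, and measured -3.70, -2.99 and -1.74 in LWDM fetuses. The lowest LWDL array was 1 log2 unit above the highest LWDM array, and the difference was -4.35 ± 0.74 (adjusted p = 0.00336). LRRC6, a factor for the assembly of ciliary dynein arms, lay between 3.63 and 5.44 in LWDL fetuses, whereas LWDM replicate 5 was at 3.28 and the other LWDM arrays between 0 and 0.76 (-3.46 ± 0.58, adjusted p = 0.00292). PDE1C, a calmodulin-dependent phosphodiesterase, ranged from 1.16 to 2.04 in LWDL and from -2.02 to -1.11 in LWDM fetuses, and was at least 1.59-fold lower in LWDM (-3.31 ± 0.20, adjusted p = 4.41e-06). LEAP2, an antimicrobial peptide of the liver that also blocks the ghrelin receptor, measured 1.29, 1.45, 1.01, 1.46 and 1.40 in LWDL and -2.08, -1.45 and -1.05 in LWDM fetuses. It was above background on all 11 arrays and clearly separated (-2.84 ± 0.16, adjusted p = 2.26e-06). PAQR8, a membrane progestin receptor, lay between 3.11 and 4.29 in LWDL and between 0.56 and 1.81 in LWDM fetuses (-2.60 ± 0.24, adjusted p = 6.89e-05). CLCA2, a regulator of chloride channels, was at least 1.34-fold lower in LWDM, and ATP6V0D2, a subunit of the vacuolar proton pump, had a difference of -2.41 ± 0.34 (adjusted p = 0.0011).

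The size of these differences depended on the background correction, and many of these probes were dim in 1 breed type. After normexp correction and loess, RPS21 (3.00), LEAP2 (-2.58), SLC47A1 (2.97), NID1 (-3.22) and HENMT1 (-3.29) still differed by more than 4-fold, whereas ABLIM1 (0.55), QTRTD1 (0.80), TNFAIP8L3 (0.67), PDE1C (-0.94), LRRC6 (-0.95), ATP6V0D2 (-0.85) and CLCA2 (-0.49) were no longer called. Of those still over 4-fold, SLC47A1 (3.88) and HENMT1 (-5.89) were not called with slide as a fixed block. Inclusion of LWDL replicate 2 ended the calls of HENMT1 (-3.29, adjusted p = 0.158) and QTRTD1 (2.34, adjusted p = 0.0759), and LRRC6, PDE1C, ATP6V0D2, CLCA2, EDARADD and PAQR8 were not tested with it.

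The list of fatty acid and icosanoid cytochromes P450, other icosanoid enzymes and 1 receptor had 8 tested genes. CYP4F3, CYP4F2, CYP2C18 and the receptor LTB4R were higher and none lower in LWDM fetuses, and the median difference of the list was 0.66. The study listed CYP4F3, CYP4F2 and CYP2C18 as higher in the liver of LWDM fetuses on these samples, so their direction is not independent evidence. Enzymes of the CYP4F family oxidize the end of long-chain fatty acids and leukotriene B4. CYP4F3 had log2 ratios of -4.79, -4.59, -4.85, -4.58 and -4.73 in LWDL fetuses. In LWDM fetuses its values were -4.65, 1.23 and 1.88, since replicate 1 was at the level of the LWDL fetuses and the other 5 lay between 1.03 and 1.88. The difference was 5.08 ± 0.99 (adjusted p = 0.00702). CYP4F2 showed the same array apart, with -3.86, -3.84, -3.59, -3.85 and -3.83 in LWDL, LWDM replicate 1 at -3.63 and the other LWDM arrays between -1.35 and -0.46 (2.44 ± 0.46, adjusted p = 0.0062). Neither gene was called with LWDL replicate 2 included (CYP4F3 4.28, adjusted p = 0.0685, and CYP4F2 1.77, adjusted p = 0.239). With slide as a fixed block CYP4F3 had 6.07 and CYP4F2 2.81, and neither was called.

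CYP4F3 was measured by 5 probes, and those differed. A second probe was called with 3.56 and the same low LWDM replicate 1 (-3.92), whereas the remaining 3 had differences of -0.09, 0.04 and 0.05 with adjusted p between 0.62 and 0.86. Genes of the CYP4F family are close in sequence, so which transcript each probe reads is uncertain. CYP2C18, a member of the CYP2C family, was at -9.88, -9.50, -9.84, -9.58 and -9.84 in LWDL and at -8.78, -8.39 and -7.11 in LWDM fetuses, far below the adult control in both. It was higher in LWDM (1.60 ± 0.27, adjusted p = 0.00298), as were 2 further CYP2C18 probes (2.36 and 1.53), whereas the other probe was lower (-1.10). With LWDL replicate 2 included the CYP2C18 difference turned to -0.11. LTB4R, the receptor of leukotriene B4, was at 2.08, 2.20, 2.95, 1.30 and 2.29 against 2.93, 3.20 and 3.37, and the groups overlapped at LWDL replicate 4 (1.01 ± 0.23, adjusted p = 0.0137). It passed 2-fold only narrowly and was not called without LWDL replicate 1 (0.99) or 5 (0.79) or without LWDM replicate 1 (0.99), 3 (0.98) or 6 (0.97). LTB4R was at 0.70 after normexp and loess, and with LWDL replicate 2 it had 1.39 (adjusted p = 0.0864).

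CYP2J2, which makes epoxides of arachidonic acid, had a representative probe at -1.57, -1.78, -1.89, -1.49 and -1.55 in LWDL and -2.44, -2.22 and -2.15 in LWDM fetuses. These groups did not overlap, but the difference of -0.61 ± 0.09 (adjusted p = 0.00111) was under 2-fold and not called. Of its 3 other probes, 2 had differences of -0.42 and -0.45 and were not called either. The dimmest CYP2J2 probe, above background on only 3 LWDL arrays, was called with 1.93. The direction for CYP2J2 therefore depended on the probe.

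**Figure D3:**
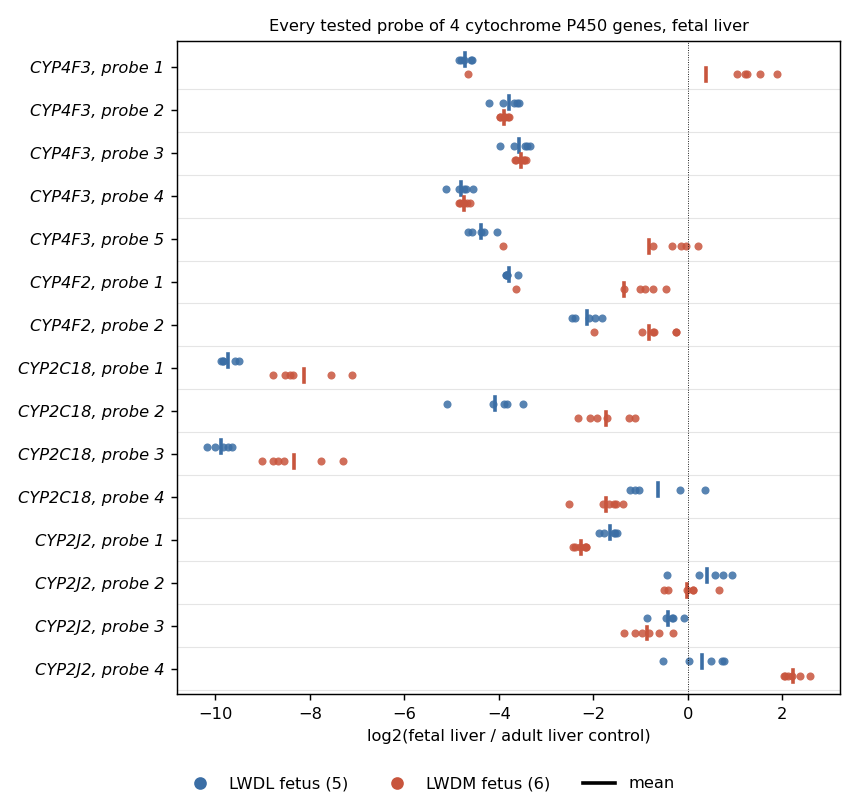
Log2 ratio to the common control on each array for every tested probe of CYP4F2, CYP4F3, CYP2C18 and CYP2J2, with points for single LWDL (blue) and LWDM (red) fetuses and vertical bars at the group means. LWDM replicate 1 lies with the LWDL fetuses for both CYP4F2 probes and the 2 called CYP4F3 probes, and probes of CYP2C18 and CYP2J2 differ in direction.

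Of 22 tested genes for uptake, activation and oxidation of fatty acids and for ketone bodies, 4 were higher, 6 lower and 12 not called, with a median difference of 0.15. Uptake proteins went in both directions. CD36, the fatty acid translocase, measured 1.82, 1.85, 1.95, 2.14 and 1.78 in LWDL and 2.81, 3.13 and 3.43 in LWDM fetuses, without overlap (1.22 ± 0.14, adjusted p = 0.000245), and its second probe was called as well (1.24). SLC27A2, a transporter and activator of very long-chain fatty acids in liver, was at -8.29, -8.10, -6.93, -8.01 and -8.29 against -6.64, -6.38 and -6.06, so that only LWDL replicate 4 came near the LWDM range (1.57 ± 0.23, adjusted p = 0.00124). SLC27A6, another member of that family, ranged from -2.56 to -1.98 in LWDL and from -3.60 to -2.82 in LWDM fetuses (-1.05 ± 0.15), and was under 2-fold without LWDL replicate 1 (-0.98) or 5 or LWDM replicate 5 (-0.98). CD36 (0.98), SLC27A2 (0.95) and SLC27A6 (-0.52) were under 2-fold after normexp and loess. With LWDL replicate 2 the SLC27A2 difference was 0.22 (adjusted p = 0.936) and that of SLC27A6 was -1.46 (adjusted p = 0.0675).

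The medium-chain acyl-CoA synthetases ACSM2A and ACSM4 were both lower in LWDM fetuses. ACSM2A was at -2.93, -3.00, -4.24, -3.26 and -3.27 in LWDL and at -5.03, -4.49 and -4.26 in LWDM fetuses, with LWDL replicate 4 next to the LWDM arrays (-1.19 ± 0.22, adjusted p = 0.00559). ACSM4 overlapped through the same replicate, at -5.42 against an LWDM range of -6.55 to -5.10 (-1.24 ± 0.29, adjusted p = 0.0176). PDK4, the kinase that shuts off pyruvate dehydrogenase in fasting, measured -4.79, -4.47, -5.03, -4.39 and -4.38 in LWDL and -6.27, -5.87 and -5.41 in LWDM fetuses (-1.21 ± 0.18, adjusted p = 0.0013). Its groups did not overlap. CPT1C, the brain form of carnitine palmitoyltransferase, had a difference of -1.04 ± 0.21 but was above background on 1 LWDM array only, and its call was lost without LWDL replicate 3 (-0.96) or 4 (-0.93) or LWDM replicate 4 (-0.91). PDK4 (-0.79) and CPT1C (-0.37) lost their calls after normexp and loess. ACSM2A (-1.84, adjusted p = 0.137), ACSM4 (-2.01, adjusted p = 0.179) and PDK4 (-2.03, adjusted p = 0.18) lost theirs with LWDL replicate 2.

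Enzymes of ketone bodies also differed. BDH2, a hydroxybutyrate dehydrogenase of the cytosol, lay between -0.89 and -0.66 in LWDL and between -2.54 and -1.41 in LWDM fetuses (-1.33 ± 0.20, adjusted p = 0.00166). OXCT1, the transferase by which tissues use ketone bodies and which adult hepatocytes lack, was above the control in both types, at 2.18, 2.52, 2.33, 2.07 and 2.08 against 3.02, 3.28 and 3.56 (1.03 ± 0.11, adjusted p = 0.000204). The OXCT1 groups were separate, although the value was just under 2-fold without LWDL replicate 5 (0.99) or 6 or LWDM replicate 1 (0.98). PPARA and CPT2 were among the 12 genes that were not called. OXCT1 had 0.85 after normexp and loess.

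Synthesis of fatty acids and of cholesterol showed few calls. Of 18 tested genes of fatty acid and triglyceride synthesis, 1 was higher, 1 lower and 16 not called (median difference 0.06), among the latter FASN, SCD, ACLY, ME1 and SREBF1. LIPH, a phospholipase that releases lysophosphatidic acid, was at 1.28, 3.00, 3.29, 3.17 and 3.66 in LWDL and at 5.10, 5.73 and 6.03 in LWDM fetuses, all above every LWDL value (2.79 ± 0.36, adjusted p = 0.000633). ELOVL7, an elongase of saturated fatty acids, lay between 0.12 and 0.74 in LWDL fetuses and was not above background in any LWDM fetus, at least 1.28-fold lower (-1.96 ± 0.33, adjusted p = 0.00289). PPARG, the transcription factor of fat storage, had a difference of 0.75 ± 0.13 (adjusted p = 0.004), which was not called. Of 17 tested genes of cholesterol synthesis and uptake, only LBR was called (median difference -0.05 over the list). LBR, a protein of the inner nuclear membrane with a sterol reductase domain, was at -2.11, 0.52, -1.22, -0.003 and -1.73 in LWDL and at 1.25, 1.55 and 1.78 in LWDM fetuses. LWDL values were spread over more than 2 log2 units and lay below all LWDM values (2.45 ± 0.41, adjusted p = 0.0033). SQLE and SREBF2 were not called, and AACS, which makes acetoacetyl-CoA for lipid synthesis, had a difference of -0.53 ± 0.14 (adjusted p = 0.0308), also not called. ELOVL7 was at -0.43 after normexp and loess.

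Conjugation and drug metabolism had 24 tested genes, 3 higher, 3 lower and 18 not called, with a median difference of -0.20. SULT1E1, a sulfotransferase that inactivates estrogens, measured -7.20, -5.68, -6.55, -6.31 and -6.58 in LWDL and -9.85, -8.89 and -7.01 in LWDM fetuses (-2.19 ± 0.47, adjusted p = 0.0106). It was far below the adult control, above background on 2 LWDM arrays only, and overlapped at LWDL replicate 1. SULT1C3 lay between 3.72 and 3.97 in LWDL and between 1.77 and 3.31 in LWDM fetuses (-1.16 ± 0.22, adjusted p = 0.00653), and was at -0.98 without LWDM replicate 3. GSTA1, a glutathione transferase, ranged from -7.26 to -6.09 in LWDL and from -8.30 to -7.61 in LWDM fetuses (-1.29 ± 0.23, adjusted p = 0.00465), with 1 further probe called lower and another not called. SULT1E1 (-0.60) and SULT1C3 (-0.83) were under 2-fold after normexp and loess. With LWDL replicate 2, calls were lost for 3 genes, where SULT1E1 had -3.33 (adjusted p = 0.133), SULT1C3 -0.61 (adjusted p = 0.56) and GSTA1 -2.40 (adjusted p = 0.248).

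GLYAT, which conjugates acyl groups with glycine in liver mitochondria, gave opposite results with its 2 probes. Its brighter probe was at -7.71, -7.45, -7.12, -7.24 and -7.42 in LWDL and at -5.94, -4.45 and -3.40 in LWDM fetuses (2.85 ± 0.46, adjusted p = 0.00244). The other probe had a difference of -6.08, was not above background on any LWDM array and was at least 6.10-fold lower in LWDM. The short-chain dehydrogenases SDR42E1 (1.31 ± 0.21, adjusted p = 0.0021) and SDR16C5, a retinol dehydrogenase (1.34 ± 0.30, adjusted p = 0.013), were higher in LWDM fetuses, SDR16C5 only by its ratio, since its Cy3 signal alone gave -0.05. CYP3A4, HSD11B1 and UGT2B17 were not called. SDR42E1 (0.77) and SDR16C5 (0.29) were under 2-fold after normexp and loess. GLYAT (1.57, adjusted p = 0.516) and SDR42E1 (0.95, adjusted p = 0.204) were not called with LWDL replicate 2.

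Solute carriers and ABC transporters had 22 tested genes, of which 6 were higher and 4 lower in LWDM fetuses (median difference 0.07). SLC47A1 was among those that were higher. ABCC8, the sulfonylurea receptor, was at 0 on all 5 LWDL arrays and between 1.74 and 1.85 on all LWDM arrays (1.80 ± 0.04, adjusted p = 3.75e-10). The LWDL values of 0 were set by the array software, so this SE and p do not measure spread among LWDL fetuses. The size is uncertain, and Cy3 alone gave 3.90. The common control, which is the same RNA on every array, was above background for ABCC8 on all 6 LWDM arrays and on no LWDL array, so both dyes differed between the arrays of the breed types at this spot, and the reason was not tested. ABCC9, its homolog in other potassium channels, ranged from -0.51 to 0.61 in LWDL and from 2.18 to 3.03 in LWDM fetuses (2.56 ± 0.21, adjusted p = 2.44e-05), with 1 LWDL array above background and the control above it on none. SLC9B1, a sodium/proton exchanger, was at 0.36, 0.52, 0.64, 0.52 and 0.29 in LWDL and at 1.58, 1.91 and 2.04 in LWDM fetuses (1.38 ± 0.10, adjusted p = 1.48e-05). ABCC9 (0.97) and SLC9B1 (0.71) were under 2-fold after normexp and loess.

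Carriers lower in LWDM fetuses included SLC5A2, SLCO3A1 and SLC44A3. SLC5A2, a sodium-glucose transporter, was at 2.59, 2.45, -0.39, 2.37 and 2.19 in LWDL and at -0.98, -0.22 and 0.10 in LWDM fetuses, so LWDL replicate 4 lay in the LWDM range (-2.16 ± 0.48, adjusted p = 0.0135). SLCO3A1, an organic anion transporter, was at 1.06, 1.98, 1.92, 1.19 and 1.80 against -0.06, 0.16 and 0.60 without overlap (-1.41 ± 0.18, adjusted p = 0.000639). SLC44A3, a choline transporter-like protein, had -1.11 ± 0.21 (adjusted p = 0.00692), with 1 LWDM array above background and a value of -1.0 without LWDL replicate 1, which was not called. SLC22A16, a carnitine transporter, differed by -1.07 ± 0.72 (adjusted p = 0.364) and was not called. SLCO3A1 (-0.97) and SLC44A3 (-0.21) lost their calls after normexp and loess, and SLC5A2 (-1.81, adjusted p = 0.0947) and SLCO3A1 (-1.05, adjusted p = 0.145) with LWDL replicate 2.

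Metallothioneins, which bind zinc and copper and are abundant in fetal liver, were measured by 6 tested genes together with zinc carriers, with 3 higher, none lower and a median difference of 0.91. MT2A measured 1.54, 1.48, 1.59, 1.69 and 2.15 in LWDL and 2.60, 2.93 and 3.18 in LWDM fetuses, without overlap (1.26 ± 0.13, adjusted p = 0.000164). MT1E was at 1.58, 1.5, 1.65, 1.51 and 2.20 against 2.54, 2.85 and 3.12 (1.18 ± 0.14, adjusted p = 0.000345), with a second probe at 0.78 that was not called. MT1L had a difference of 0.64 ± 0.11 (adjusted p = 0.00433), which was under 2-fold. In each, LWDL replicate 6 was the highest LWDL array. Metallothionein genes are near-identical, and the probes may read the same transcripts. SLC39A9, a zinc carrier of the Golgi, lay between -0.95 and -0.50 in LWDL fetuses and up to 3.41 in LWDM fetuses, where replicate 4 was at -0.81 within the LWDL range and replicate 1 at 0.47 (2.91 ± 0.73, adjusted p = 0.0232). The SLC39A9 call was lost without LWDL replicate 5 (2.87, adjusted p = 0.0532) or 6 (2.87, adjusted p = 0.0501). It was not called with LWDL replicate 2 either (2.61, adjusted p = 0.0729).

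Of 16 tested genes of glycogen and glucose metabolism, 4 were higher, 1 (PDK4) lower and 11 not called, with a median difference of 0.07. PGM1, which links glycogen to glycolysis through glucose 1-phosphate, was at -0.71, -1.01, -0.82, -0.72 and 1.14 in LWDL and at 1.18, 1.35 and 1.43 in LWDM fetuses, so LWDL replicate 6 was next to the LWDM arrays (1.75 ± 0.32, adjusted p = 0.00495). PPP1R3B, the subunit that brings protein phosphatase to glycogen in liver, had -4.75, -5.08, -4.86, -4.77 and -4.07 against -4.34, -3.55 and -2.94, and LWDL replicate 6 overlapped (1.09 ± 0.26, adjusted p = 0.0188). The PPP1R3B call was lost without LWDL replicate 3 (1.00) or LWDM replicate 2 (0.95). HK2, the hexokinase of muscle and growing cells, was not above background in any LWDL fetus and at least 1.26-fold higher in LWDM fetuses (2.03 ± 0.36, adjusted p = 0.0042). PDHA1, a subunit of pyruvate dehydrogenase, differed by 0.65 ± 0.15 (adjusted p = 0.0182) and G6PC and PCK1 were, like it, not called. PPP1R3B (0.81) and HK2 (0.35) were under 2-fold after normexp and loess, and PPP1R3B was at 0.19 with LWDL replicate 2.

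Amino acid catabolism had 16 tested genes, 2 higher, 2 lower and 12 not called, with a median difference of 0.13. OAT, ornithine aminotransferase, was at -3.50, -3.86, -3.41, -3.78 and -3.51 in LWDL and at -2.77, -2.52 and -2.35 in LWDM fetuses (1.05 ± 0.10, adjusted p = 0.000109). The groups were apart, but without LWDL replicate 3 the OAT value was 0.99. CA5A, the mitochondrial carbonic anhydrase that supplies bicarbonate to urea synthesis, lay between -1.07 and -0.80 in LWDL and between 0.03 and 0.27 in LWDM fetuses (1.08 ± 0.07, adjusted p = 5.79e-06). AFMID, a formamidase of tryptophan breakdown, was not above background on any LWDM array and at least 1.5-fold lower there (-2.07 ± 0.35, adjusted p = 0.00295). PPM1K, the phosphatase that activates branched-chain keto acid breakdown, ranged from 2.35 to 3.81 in LWDL and from 0.28 to 1.74 in LWDM fetuses (-1.69 ± 0.32, adjusted p = 0.00599). D2HGDH, a dehydrogenase of 2-hydroxyglutarate, had a difference of 0.80 ± 0.19 (adjusted p = 0.019) and was not called. All 4 called genes were under 2-fold after normexp and loess (OAT 0.98, CA5A 0.89, AFMID -0.60 and PPM1K -0.77). OAT (0.54), CA5A (0.89) and PPM1K (-1.22, adjusted p = 0.248) were not called with LWDL replicate 2.

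Acute phase, complement and antimicrobial proteins had 17 tested genes, 3 higher, 3 lower and 11 not called, with a median difference of 0.16. Besides LEAP2, APCS and IGFBP1 were lower in LWDM fetuses. APCS, serum amyloid P, was at -3.73, -3.88, -4.62, -3.74 and -2.88 in LWDL and at -7.10, -5.74 and -3.97 in LWDM fetuses (-1.93 ± 0.54, adjusted p = 0.0381). These groups overlapped, and its adjusted p was between 0.065 and 0.089 without any of LWDL replicates 1, 3, 5 and 6 or LWDM replicates 1, 2 and 4. IGFBP1, which binds insulin-like growth factors and is made by liver, was at 3.94, 3.51, 2.52, 4.14 and 4.56 against 1.01, 2.27 and 3.15, with LWDL replicate 4 in the LWDM range (-1.49 ± 0.41, adjusted p = 0.036). Its call was lost without LWDL replicate 1, 3, 5 or 6 or LWDM replicate 1, 3, 4 or 6. C1S, a protease of the first complement component, measured -4.96, -5.06, -3.31, -5.13 and -5.51 in LWDL and -3.46, -3.12 and -2.80 in LWDM fetuses, with LWDL replicate 4 again next to LWDM (1.66 ± 0.32, adjusted p = 0.00656). TCN1, a vitamin B12 binder of granulocytes, was called by all 4 of its probes (1.16 ± 0.19, adjusted p = 0.00232), and CAMP, cathelicidin, lay between 4.66 and 5.61 in LWDL and between 6.05 and 6.71 in LWDM fetuses (1.11 ± 0.17, adjusted p = 0.00183). Without LWDL replicate 1 the CAMP value was 0.96. LYZ, lysozyme, spanned -3.69 to 3.51 among LWDM fetuses and 0.47 to 2.92 among LWDL fetuses (-2.54 ± 1.23, adjusted p = 0.2, not called), and ITIH3, an inhibitor heavy chain, had 0.99 ± 0.25 (adjusted p = 0.0243, not called). APCS was at -0.67 after normexp and loess. With LWDL replicate 2, APCS (-2.53, adjusted p = 0.0897), IGFBP1 (-0.76), C1S (0.85) and CAMP (2.36, adjusted p = 0.308) were not called. In 1 fit over all liver arrays, which shares its estimate of the spread with the other ages, TCN1 (adjusted p = 0.394), CAMP (adjusted p = 0.323) and IGFBP1 (adjusted p = 0.0604) were not called.

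Interferon response and antigen presentation had 20 tested genes, 2 higher, 3 lower and 15 not called, with a median difference of 0.05. STAT3, the transcription factor downstream of interleukin 6, was tightly grouped, at -0.94, -0.93, -0.63, -1.14 and -0.92 in LWDL and 0.25, 0.38 and 0.53 in LWDM fetuses (1.31 ± 0.08, adjusted p = 5.79e-06). DTX3L, a ubiquitin ligase of DNA damage and interferon signaling, was higher as well (1.18 ± 0.19, adjusted p = 0.00277). TNFSF10, the death ligand TRAIL, was at -3.32, -3.59, -3.43, -2.85 and -3.41 against -4.83, -4.66 and -4.19, without overlap (-1.31 ± 0.14, adjusted p = 0.000197). IFI27L2 (-1.43 ± 0.25, adjusted p = 0.00377) and the ubiquitin ligase RNF125 (-1.08 ± 0.21, adjusted p = 0.0065) were lower, RNF125 at -0.98 without LWDM replicate 1 and -0.97 without LWDM replicate 2. TRIM25, which activates the sensor RIG-I, had 0.99 ± 0.14 (adjusted p = 0.00105) and was not called, and OAS1, HLA-B and PSMB9 were not called either. DTX3L (0.57) and TNFSF10 (-0.69) were under 2-fold after normexp and loess. Of the 5 called genes, only STAT3 was called with LWDL replicate 2, where DTX3L had 0.91, RNF125 -0.71, IFI27L2 -1.20 (adjusted p = 0.0579) and TNFSF10 -1.85 (adjusted p = 0.0694).

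Of 16 tested chemokines, receptors and immune signaling genes, 4 were higher, 1 lower and 11 not called, with a median difference of 0.12. VNN2, a pantetheinase of granulocytes, was at 2.44, 2.79, 2.29, 1.90 and 2.72 in LWDL and at 3.38, 4.07 and 4.34 in LWDM fetuses (1.53 ± 0.21, adjusted p = 0.000933). HRH1, the histamine H1 receptor, was lower in LWDM fetuses, at -0.26, 0.33 and 1.55 against 2.27, 1.86, 1.63, 2.06 and 1.93 (-1.53 ± 0.26, adjusted p = 0.0034). CLEC2B, a lectin that activates natural killer cells, had 1.05 ± 0.22 (adjusted p = 0.0091), which was under 2-fold without LWDL replicate 6 (0.94) or LWDM replicate 2 (0.99) or 3 (0.94), and was also lost without LWDL replicate 5. CCL23, a chemokine for monocytes, was just under 2-fold with its brightest probe (0.99 ± 0.11, adjusted p = 0.000239), while 2 of its other 4 probes were called (1.02 and 1.14). VNN2 (0.86) and CLEC2B (0.51) were under 2-fold after normexp and loess, and HRH1 was not called with LWDL replicate 2 (-1.11, adjusted p = 0.225).

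Hormones, growth factors and signaling receptors had 20 tested genes, of which 4 were higher and 10 lower in LWDM fetuses, with a median difference of -0.67. TGFBR3, betaglycan, a co-receptor of TGF-beta, was at 1.41, 1.18, 2.43, 2.49 and 2.63 in LWDL and at -1.0, -0.69 and 1.32 in LWDM fetuses, where replicate 4 alone reached the LWDL range (-2.44 ± 0.43, adjusted p = 0.00377). Both TGFBR3 probes were called. CCK, cholecystokinin, lay between -0.74 and -0.03 in LWDL and between -2.68 and -1.93 in LWDM fetuses (-1.86 ± 0.15, adjusted p = 2.74e-05). TCF7L2, a transcription factor of the Wnt pathway, was at 0.67, 1.56, 0.53, 1.35 and 0.76 against -0.85, -0.83 and -0.70, without overlap (-1.76 ± 0.17, adjusted p = 8.7e-05). PCSK5, a proprotein convertase (-1.30 ± 0.25, adjusted p = 0.00594), and RAMP1, which forms the receptor for calcitonin gene-related peptide (-1.14 ± 0.22, adjusted p = 0.00656), were lower, and PCSK5 was above background on 1 LWDM array only. KL, the co-receptor klotho, had -1.16 ± 0.26 (adjusted p = 0.014) and was at -0.96 without LWDL replicate 6. PCSK5 (-0.36), RAMP1 (-0.44) and KL (-0.32) were under 2-fold after normexp and loess, and TGFBR3 was not called with LWDL replicate 2 (-1.89, adjusted p = 0.136).

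DNER, a ligand of Notch, was higher in LWDM fetuses, at 7.01, 7.37 and 7.66 against 6.18, 6.26, 3.39, 3.81 and 5.21 (2.37 ± 0.49, adjusted p = 0.00927). The LWDL fetuses were spread over nearly 3 log2 units, below all LWDM fetuses, and the second DNER probe was called too (2.55). FGF13, an intracellular member of the fibroblast growth factor family (1.13 ± 0.13, adjusted p = 0.000321), and S1PR3, a receptor of sphingosine 1-phosphate (1.03 ± 0.23, adjusted p = 0.0128), were higher. S1PR3 was at 0.86 without LWDL replicate 1 and under 2-fold without LWDL replicate 3 or 5 or LWDM replicate 2, 4 or 5 as well. NR3C1, the glucocorticoid receptor, differed by -0.32 ± 0.14 (adjusted p = 0.152), and GHR, IGF1, IGFBP4, FGF2 and SOCS2 were, like it, not called. FGF13 (0.75) and S1PR3 (0.62) lost their calls after normexp and loess, and DNER (3.20, adjusted p = 0.069) and FGF13 (0.75, adjusted p = 0.32) with LWDL replicate 2.

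The 5 genes that the study grouped under male gonad development in LWDL fetuses were all lower in LWDM fetuses, with a median difference of -1.31. This list was chosen by the study on these samples, so its direction is not independent evidence. Its members were LRRC6, TNFSF10, BCL2, ESR1 and NR0B1, which act in cilia, cell death, cell survival, estrogen signaling and steroid gene repression. ESR1, the estrogen receptor, was at -2.42, -3.44, -2.83, -2.55 and -2.92 in LWDL and at -5.03, -4.10 and -3.45 in LWDM fetuses (-1.30 ± 0.28, adjusted p = 0.0111). NR0B1, the repressor DAX1, lay between -3.51 and -2.43 in LWDL and between -4.62 and -3.54 in LWDM fetuses (-1.02 ± 0.20, adjusted p = 0.00705). It was above background on 2 LWDM arrays, and its call was lost without LWDL replicate 5 (-0.87) or LWDM replicate 4 (-0.91) or 6. None of the 5 was called after normexp and loess, where LRRC6 had -0.95, TNFSF10 -0.69, BCL2 -0.81, ESR1 -0.59 and NR0B1 -0.33, nor from Cy3 alone (-0.95, -0.71, -0.77, -0.62 and -0.35 in that order). ESR1 (-1.76, adjusted p = 0.0708), NR0B1 (-1.61, adjusted p = 0.15) and TNFSF10 (-1.85, adjusted p = 0.0694) were not called with LWDL replicate 2, with which LRRC6 was not tested.

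Apoptosis and mitochondrial proteins had 17 tested genes, 5 higher, 6 lower and 6 not called, with a median difference of 0.09. BCL2, which protects cells from apoptosis, measured -1.34, -1.42, -1.38, -1.24 and -1.40 in LWDL and -3.52, -2.73 and -2.35 in LWDM fetuses (-1.44 ± 0.16, adjusted p = 0.000261). CYCS, cytochrome c, was at 0.10, 0.36, 0.29, 0.23 and 0.22 against -1.25, -1.08 and -0.85 (-1.31 ± 0.07, adjusted p = 2.41e-06), but its 2 other probes had 0.17 and 0.18 and were not called. APAF1, which forms the apoptosome with cytochrome c, was higher (1.01 ± 0.18, adjusted p = 0.00388) and was under 2-fold without LWDL replicate 5 (0.92) or 6 (0.92) or LWDM replicate 4 (0.99) or 6 (0.92). Of subunits of the respiratory chain, UQCRC2 of complex III was lower (-1.22 ± 0.25, adjusted p = 0.00946), as was NDUFB9 of complex I, at 0.66, 0.55, 0.58, 0.37 and 0.44 in LWDL against -3.29, -1.85 and -0.43 in LWDM fetuses (-2.35 ± 0.57, adjusted p = 0.0195). BCL2 (-0.81), APAF1 (0.89), UQCRC2 (-0.73) and NDUFB9 (-0.70) were under 2-fold after normexp and loess, and APAF1 was not called with LWDL replicate 2 (1.41, adjusted p = 0.0741).

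GLRX5, a glutaredoxin of iron-sulfur cluster assembly, was at -1.56, -1.13, -1.73, -1.34 and -1.17 in LWDL and at -4.43, -3.11 and -1.66 in LWDM fetuses (-1.67 ± 0.49, adjusted p = 0.0465), and its adjusted p was between 0.062 and 0.092 in 8 of the fits that left out 1 array. MFN2, which fuses mitochondria (1.26 ± 0.28, adjusted p = 0.0136), MRPL48 of the mitochondrial ribosome (1.09 ± 0.11, adjusted p = 0.000124, at least 1.28-fold), RB1CC1 of autophagy (1.05 ± 0.20, adjusted p = 0.00565) and TMBIM6, an inhibitor of cell death (1.04 ± 0.12, adjusted p = 0.000309), were higher in LWDM fetuses. RB1CC1 was at 0.92 without LWDM replicate 3 and 0.96 without replicate 5, and TMBIM6 at 0.99 without LWDL replicate 3 and also under 2-fold without replicates 1 or 5. MRPS24 had 0.97 ± 0.17 (adjusted p = 0.00349) and was not called. MFN2 (0.46), MRPL48 (0.42), RB1CC1 (0.70) and TMBIM6 (0.92) were under 2-fold after normexp and loess, and GLRX5 (-1.89, adjusted p = 0.0611), MRPL48 (0.87) and TMBIM6 (0.84) were not called with LWDL replicate 2.

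Ribosomal proteins and RNA processing had 17 tested genes, 2 higher, 5 lower and 10 not called, with a median difference of -0.28. SNRPA1, a protein of the U2 spliceosomal particle, was at 0.18, 0.88, 1.09, -0.12 and 0.93 in LWDL and at -4.78, -4.67 and -0.05 in LWDM fetuses (-4.48 ± 0.78, adjusted p = 0.00368). LWDM replicate 1 was in the LWDL range and the other 5 lay between -4.78 and -4.45, and only 1 LWDM array was above background. COIL, coilin of Cajal bodies, was at 1.84, 0.87, 0.81, 1.62 and 1.82 against -1.11, -0.89 and -0.74 (-2.30 ± 0.19, adjusted p = 3.45e-05). WDR3, a factor of ribosome assembly, was lower by all 3 probes (-1.69 ± 0.27, adjusted p = 0.00245), with LWDM replicate 2 at 0.82 and the other LWDM arrays at or below -0.24. MBNL2, a splicing regulator, was lower by both probes (-1.09 ± 0.12, adjusted p = 0.000214), RPL31 of the large ribosomal subunit was at -1.05 ± 0.07 (adjusted p = 7.48e-06), and LUC7L3, a splicing factor, was higher (1.00 ± 0.07, adjusted p = 7.91e-06). The LUC7L3 call was lost without LWDL replicate 5 (0.95) or LWDM replicate 3 (0.97) or 6 (0.99). RPL32 was at or below -1.74 in all LWDL fetuses and between -2.17 and 2.47 in LWDM fetuses (2.51 ± 0.85, adjusted p = 0.0739, not called). MBNL2 (-0.83), RPL31 (-0.53) and LUC7L3 (0.82) were under 2-fold after normexp and loess. With LWDL replicate 2 included, COIL (-1.70, adjusted p = 0.14), MBNL2 (-0.85), RPL31 (-0.64) and LUC7L3 (0.92) were not called.

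Of 15 tested genes of cell cycle and DNA repair, 2 were higher, none lower and 13 not called, with a median difference of 0.34. RAD51AP1, a protein of homologous recombination, was at 2.93, 3.37, 3.59, 2.87 and 3.45 in LWDL and at 4.14, 5.02 and 5.31 in LWDM fetuses (1.59 ± 0.23, adjusted p = 0.00142). TACC1, a spindle-associated protein, was higher as well (1.21 ± 0.20, adjusted p = 0.00268). CCNB2, CCNE1 and CDC7 were not called, and MYBL1, a transcription factor, had -0.78 ± 0.28 (adjusted p = 0.0891) with its brighter probe and was called with its other probe (-1.20). RAD51AP1 was not called with LWDL replicate 2 (2.24, adjusted p = 0.0754).

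**Figure D4:**
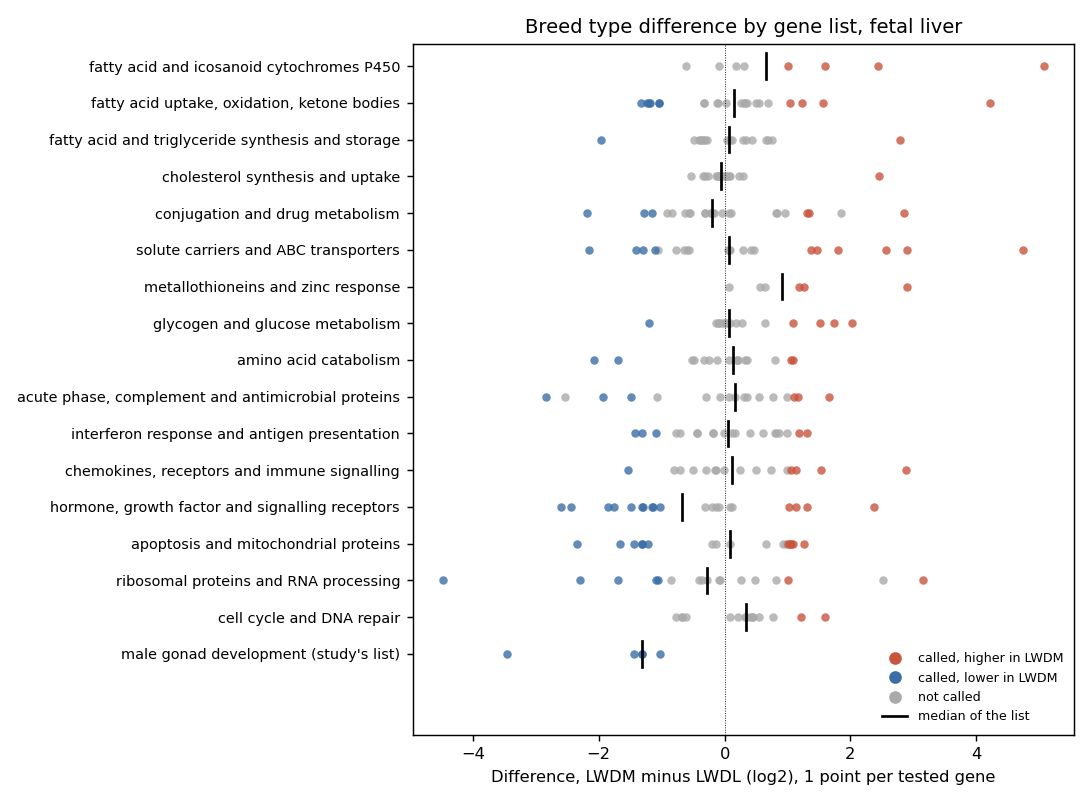
Differences (LWDM minus LWDL, log2, x axis) of the tested genes of each list (y axis), 1 point per gene, red where called higher in LWDM, blue where called lower and gray where not called, with a bar at the median of the list. Medians run from -1.31 for the study's list to 0.91 for metallothioneins and zinc response. Listed genes have symbols only from the study's lists of differing genes, so these medians cannot be set against all tested probes.

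Markers of other cell types of the liver moved with breed type in part. Among 8 tested endothelial markers, PECAM1 (-1.36 ± 0.28, adjusted p = 0.00972), CLEC1A (-2.12 ± 0.23, adjusted p = 0.000195), CLEC4G of sinusoids (-1.12 ± 0.26, adjusted p = 0.0159) and ESM1 (-1.22 ± 0.22, adjusted p = 0.00502) were lower in LWDM fetuses and 4 were not called. The summed Cy3 signal of the 10 endothelial markers with a probe ranged from 17300 to 24400 in LWDL and from 9030 to 16500 in LWDM fetuses, of which CLEC4G made up 81% and 66.8% on average. This sum is not scaled between arrays. Mean signals in LWDL and LWDM fetuses were higher in LWDM for MMRN2 (325 and 722), NRP1 (1040 and 1630) and CD300LG (237 and 277). Those of the other endothelial markers were lower, with CLEC4G at 17000 and 8680. The median difference of the 8 tested endothelial markers was -0.72. CLEC1A was at 1.06, 0.57, 0.78, 0.53 and 0.77 against -1.91, -1.56 and -0.58. Of the others, MMRN2 had 1.99 ± 0.69 (adjusted p = 0.0807), CD34 -0.31 (adjusted p = 0.41) and NRP1 0.64 (adjusted p = 0.00232), the last 2 under 2-fold. CLEC4G was at -0.99 without LWDM replicate 6, and with LWDL replicate 2 included the ESM1 difference was 0.08. PECAM1 (-0.52) and ESM1 (-0.66) were under 2-fold after normexp and loess, and CLEC4G (-0.93) with Cy3 alone. ESM1 was not called in 1 fit over all liver arrays (adjusted p = 0.222). The part of endothelial cells in the differences of TGFBR3, S1PR3 and HRH1, which endothelial cells also express, was not tested.

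Among 9 tested macrophage and granulocyte markers, 3 were higher in LWDM fetuses, among them CAMP and SRGN, and 6 were not called, with a median difference of 0.07. CD163, the marker of resident macrophages, had -0.53, LYZ -2.54 (adjusted p = 0.2), MS4A7 -0.44, FCGR1A -0.01, S100A9 0.35 and S100A12 0.07. SRGN, the proteoglycan of granules, was higher by all 3 probes (1.08 ± 0.25, adjusted p = 0.0161), with LWDL replicate 4 at 1.66 in the LWDM range and LWDM replicate 6 at 2.84, and was at 0.99 without LWDL replicate 1 and 0.89 without LWDM replicate 6. Their summed Cy3 signal was 79100 to 173000 in LWDL and 212000 to 316000 in LWDM fetuses over the 13 markers with a probe, while EMR1 and MPO were at background on all arrays. This sum was mostly S100A9 (45.4% in LWDL and 36.8% in LWDM fetuses), S100A12 (28.9% and 28.5%) and CAMP (16.8% and 27.7%). It is not scaled between arrays, and neither is the hepatocyte sum, which was 1450000 to 1690000 in LWDL and 1300000 to 1620000 in LWDM fetuses. The mean Cy3 signal of S100A12 was 31400 in LWDL and 71600 in LWDM fetuses although its ratio to the control differed by 0.07. CAMP differed by 2.005 with the Cy3 channel alone, against 1.11 by its ratio. The reason for these gaps between signal and ratio was not tested. The part of granulocytes in the differences of TCN1, VNN2 and CLEC2B was not tested.

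Erythroid markers were represented by 6 tested genes, of which HBE1, embryonic epsilon globin, was lower in LWDM fetuses, at 3.90, 4.32, 3.96, 4.09 and 4.10 against 2.37, 3.13 and 3.52 (-1.03 ± 0.19, adjusted p = 0.00549), and KEL had 0.78 ± 0.69 (adjusted p = 0.5, not called). The summed erythroid signal overlapped, with 17300 to 38800 in LWDL and 22000 to 39300 in LWDM fetuses, and HBE1 was under 2-fold without LWDL replicate 3 (-0.97) or LWDM replicate 3 (-0.96) or 5 (-0.90). Of 9 T and natural killer cell markers, CD8A was lower (-1.35 ± 0.14, adjusted p = 0.000177) and UBASH3A higher (1.21 ± 0.29, adjusted p = 0.0178). UBASH3A was not called without LWDM replicate 4 (0.997). EOMES had -0.93 ± 0.13 (adjusted p = 0.000961, not called), and CD3D, THEMIS and KLRF1 were at background on all arrays. PROM1, a marker of bile duct progenitors, was at -1.10, -1.10, -1.37, -1.01 and -1.33 in LWDL and at 0.15, 0.32 and 0.59 in LWDM fetuses (1.52 ± 0.09, adjusted p = 2.76e-06), while PKHD1 had -0.85 ± 0.37 (adjusted p = 0.157) and KRT19 and SOX9 were not called. No tested marker of B cells (EAF2 -1.65, adjusted p = 0.177), stellate cells and fibroblasts (COL1A2 0.90, adjusted p = 0.141), skeletal muscle (TNNI2 -0.95, adjusted p = 0.0196) or adipocytes was called. CD8A (-0.43) and UBASH3A (0.34) were under 2-fold after normexp and loess, and HBE1 was at -0.16 with LWDL replicate 2 and not called in 1 fit over all liver arrays (adjusted p = 0.137).

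More than 1 probe was tested for 42 of the called genes. For 33 of these every probe was called in the same direction, for 6 some probe was not called, and for CYP2C18, GLYAT and TMSB15B a probe was called in the opposite direction. TMSB15B, a thymosin that binds actin and has a near-identical copy, had 2.42 with one probe (2.51 after normexp and loess) and -1.05 with the other. Among the 135 called probes without a symbol, the largest differences were 3.74 and 3.71 toward LWDM, both not above background in any LWDL fetus (at least 1.89-fold and 1.46-fold), and -3.83 and -3.69 toward LWDL, the latter at least 1.68-fold.

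The same comparison was available in liver of 12-day-old sucklings (5 LWDL, 6 LWDM), liver of 5-month-old fattening pigs (8 LWDL, 7 LWDM) and muscle of fetuses of the same age (6 LWDL, 6 LWDM). Called probes made up 1.7% of 29342 tested in suckling liver, 2.19% of 32099 in fattening liver and 1.51% of 29582 in fetal muscle. Of the 427 called in fetal liver, 345 were tested in suckling liver, and 78 of them (22.6%, or 15.6% of the calls in suckling liver) were called in the same direction and 17 in the opposite. In fattening liver this held for 76 of 364 (20.9%, or 10.8% of the calls there), with 22 opposite. In fetal muscle it held for 117 of 315 (37.1%, or 26.2% of the calls there), with 0 opposite. By their deviations from the group mean, 4 of 5 LWDL and 6 of 6 LWDM liver arrays correlated best with the muscle array of the same number. The muscle arrays therefore cannot be taken as independent animals. No call in the same direction in any of the 3 was found for 249 of the 427.

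A difference between the breed effects was tested as an interaction. Against suckling liver it was called for 1.55% of 30973 probes, against fattening liver for 2.88% of 32967 and against fetal muscle for 1.42% of 31823. The test against muscle did not pair liver and muscle of the same number. Among the 427 probes of fetal liver the called interactions were 118, 193 and 154, counts that the choice of the 427 for their fetal difference favors. QTRTD1 was higher in LWDM fetuses (3.05) and lower in LWDM sucklings (-3.77), with an interaction of 6.82 (adjusted p = 1.98e-11), whereas in fetal muscle it was higher in LWDM (3.09). IGFBP1 was lower in LWDM fetuses (-1.49) and higher in LWDM sucklings (1.84), with an interaction of -3.33 (adjusted p = 0.00395). TGFBR3 had the same pattern (-2.44 and 1.46, interaction -3.90, adjusted p = 0.0012), and PPP1R3B the reverse (1.09 and -1.20, interaction 2.29, adjusted p = 0.00158). PROM1 (1.52 and -1.45, interaction 2.97, adjusted p = 0.00121) and UQCRC2 (-1.22 and 1.22, interaction -2.45, adjusted p = 3.33e-06) changed direction between fetal and fattening liver. So did 1 probe of SLC47A1, with 4.48 in fetal and -2.46 (adjusted p = 0.000191) in fattening liver and an interaction of 6.93 (adjusted p = 3.32e-09). The brightest SLC47A1 probe did not pass the filter for the contrast in fattening liver, with means of 1.53 in LWDL and 0.83 in LWDM, and had an interaction of 5.45 (adjusted p = 2.1e-05).

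Other differences were present at several ages. CYP4F3 was higher in LWDM in suckling (3.64) and fattening liver (3.1) as well as in fetal liver (5.08), and neither interaction was called (adjusted p = 0.58 and 0.2), whereas in fetal muscle its difference was 0.08 with an interaction of 5.00 (adjusted p = 0.00628). LEAP2 was lower in LWDM fetuses (-2.84) and sucklings (-3.88) without a called interaction (adjusted p = 0.089), but had 0.25 in fattening pigs, with an interaction of -3.09 (adjusted p = 1.38e-06). MT2A was higher in LWDM at all 3 ages of liver, with 1.26, 1.55 and 2.30, and had -0.01 in fetal muscle (interaction 1.28, adjusted p = 5.8e-05). NID1 had -0.60 in suckling liver and -1.02 in fattening liver, and its interactions against fetal liver were -4.12 (adjusted p = 3.54e-09) and -3.70 (adjusted p = 8.86e-12). RPS21 and PDE4B were higher in fetal muscle too (3.96 and 3.11), as was TOR3A (5.43), and COIL (-2.54) and SNRPA1 (-4.33) were lower there.

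In all 4 comparisons 19 probes were called in the same direction. Of these, 13 had a symbol, of which 2 each belonged to MBNL2 and CHM and the others to SNRPA1, FAM60A, APOA1BP, XIST, TMEM37, DNAJC13, PDE4B, HNRNPA1 and FAM13A. XIST, the RNA of the inactive X chromosome, and CHM, a Rab escort protein, were singled out after their values were seen. XIST was above background on all 11 fetal arrays, lay between -0.96 and -0.73 in LWDL and between -2.43 and -1.55 in LWDM fetuses (-1.04 ± 0.14, adjusted p = 0.000803), and differed by -1.14, -1.07 and -1.28 in suckling liver, fattening liver and fetal muscle. All these fetuses were labeled female. CHM differed by 1.94, 1.78, 2.04 and 1.70 in the 4 comparisons with the dimmer of its probes. In fetal liver XIST was under 2-fold after normexp and loess (-0.97), with Cy3 alone (-0.97) and without LWDM replicate 4 (-0.99) or 5 (-0.94), and was not called with slide as a fixed block (-1.29, adjusted p = 0.0578). Neither CHM probe was called after normexp and loess (0.59 and 0.50) or with slide as a fixed block (1.11, adjusted p = 0.436, and 0.78). DNAJC13 (-0.95), FAM13A (0.68), TMEM37 (0.91), the second probe of PDE4B (0.84) and both of MBNL2 (-0.83 and -0.77) were under 2-fold after normexp and loess as well, whereas APOA1BP (1.12), FAM60A (1.25), HNRNPA1 (1.09) and SNRPA1 (-1.62) remained called. The brightest HNRNPA1 probe was not called in fetal liver (0.82 ± 0.17, adjusted p = 0.00878). Slide as a fixed block also ended the calls of HNRNPA1 (1.37, adjusted p = 0.18), FAM13A (0.62), TMEM37 (1.26, adjusted p = 0.0788), DNAJC13 (-2.47, adjusted p = 0.129), SNRPA1 (-4.92, adjusted p = 0.188) and the dimmer MBNL2 probe (-1.34, adjusted p = 0.0954). DNAJC13 (-1.49, adjusted p = 0.0741), TMEM37 (0.90) and both MBNL2 probes (-0.85 and -0.89) were not called with LWDL replicate 2, nor was DNAJC13 without LWDL replicate 3 (adjusted p = 0.0522) or 5 (adjusted p = 0.0572).

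**Figure D5:**
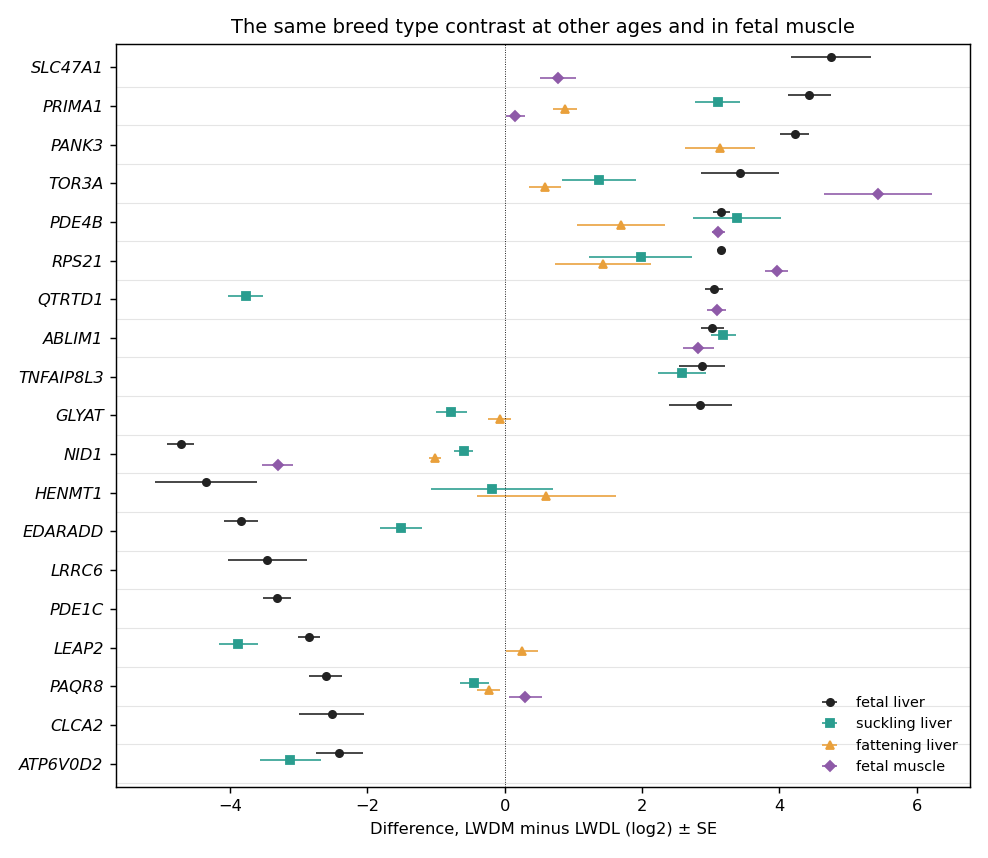
Differences (LWDM minus LWDL, log2, x axis) with SE as error bars for the 19 genes shown among those with the largest fetal differences, in fetal liver (circles), suckling liver (squares), fattening liver (triangles) and fetal muscle (diamonds), where tested. QTRTD1 lies at 3.05 in fetal liver and at -3.77 in suckling liver, and NID1 lies farther from 0 in fetal liver (-4.72) than in liver at the later ages.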

How the data were processed

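The intensity values, per the file headers, are processed signals of both dyes from Agilent Feature Extraction 9.5.3.1 (9.5 in the submitters' processing notes), with the background subtracted and the dyes normalized by the authors' software. The deposited log10 values are its ratios of Cy5 (common control) over Cy3 (sample), and the authors' series table holds the same ratios turned around, within 0.005. They were converted here to log2 with the sample as numerator, without the 1417 control spots among 44638 per array, and spots marked as outliers were set to missing. A probe is a single oligonucleotide, so its ratio is hybridization to that sequence and probes of a gene can differ. LWDL replicate 2 was left out for its resemblance to the control.

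Tested were probes with at least 3 values per breed type whose Cy3 signal exceeded background throughout 1 breed type or both. LWDL and LWDM arrays were compared with limma 3.58.1 (lmFit, eBayes) in R 4.3.3 and called where they differed over 2-fold and the p adjusted over all tested probes (Benjamini-Hochberg) was under 0.05, and other ages and tissues were compared by interaction terms. Replicates are fetuses, and p-values measure the spread between these samples only. On simulated data, 95.5% of 200 probes changed by 1.5 (log2) among 29485 were recovered. The simulated noise was independent between arrays, without effects of slide or litter, a background limit or missing values, so this share does not cover those.

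Symbols are those of the study's supplementary gene lists, and can be old. Each gene was represented by its tested probe with the highest mean Cy3 signal. Named by rule were the called genes of each list and, of those not called, the gene with the largest difference. Also named were the 10 largest non-overlapping differences in each direction, CYP2J2, CYP4F2 and CYP4F3, and 2 called probes without a symbol in each direction. Some genes counted in the lists are not reported here by name. Members and gene lists were chosen with earlier results of these data known. Neighboring genes were taken from RefSeq (Sscrofa11.1), to which 193 of the 227 called genes matched.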

Additional observations from a re-analysis of the deposited data

Results flagged for a closer look

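Among 257 groups of 4 to 6 arrays examined over the 129 named genes, 27 had an array far from the others of its breed type by Dixon's test, and chance alone gives about 1 in 20 groups. LWDL replicate 4 stood apart in 7 of them. It was the highest LWDL array for SLC27A2 (-6.93), C1S (-3.31), CYP4F2 (-3.59) and SRGN (1.66), and the lowest for SLC5A2 (-0.39), ACSM2A (-4.24) and RPS21 (0.376). LWDM replicate 1 was the lowest LWDM array for CYP4F3 (-4.65), CYP4F2 (-3.63) and D2HGDH (-0.0069) and the highest for SNRPA1 (-0.054). LWDL replicate 6 was the highest for PGM1 (1.14), MT1E (2.2), ESM1 (8.5) and TMBIM6 (-0.452). LWDM replicate 5 was the highest for LRRC6 (3.28) and TNFSF10 (-4.19) and the lowest for TNFAIP8L3 (1.17). In the other cases LWDL replicate 1 was low for LIPH (1.28), LWDL replicate 3 for NID1 (-0.915) and KEL (0), LWDL replicate 5 for AACS (-0.962) and TNFAIP8L3 (-0.512) and LWDM replicate 4 for MRPS24 (0.666). LWDM replicate 2 was high for WDR3 (0.822), LWDM replicate 4 for TGFBR3 (1.32) and LWDM replicate 6 for SRGN (2.84).

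The difference between breed types itself differed from that at another age or in muscle, by an interaction term, for 479 probes against suckling liver, 951 against fattening liver and 452 against fetal muscle. Against suckling liver the interactions (log2, fetal minus other) were 6.82 for QTRTD1, 3.62 for GLYAT, 2.43 for PANK3, -4.12 for NID1, -2.64 for LRRC6, -2.33 for EDARADD and -2.16 for PAQR8. Against fattening liver they were 5.45 for SLC47A1, 3.56 for PRIMA1, 2.92 for GLYAT, 2.91 for TNFAIP8L3 and 2.84 for TOR3A among genes higher in LWDM fetuses. Those of genes lower in LWDM fetuses were -4.96 for HENMT1, -3.7 for NID1, -3.39 for PDE1C, -3.09 for LEAP2, -2.77 for CLCA2, -2.42 for LRRC6, -2.37 for PAQR8, -1.93 for EDARADD and -1.56 for ATP6V0D2. CYP2J2, which was not called in fetal liver, had -2.17. Against fetal muscle they were 5.00 for CYP4F3, 4.29 for PRIMA1, 3.97 for SLC47A1, 2.35 for CYP4F2, 2.33 for TNFAIP8L3 and 2.24 for PANK3. Of the genes lower in LWDM fetuses, HENMT1 had -4.12, LRRC6 -3.7, PDE1C -3.51, PAQR8 -2.9, LEAP2 -2.67, ATP6V0D2 -2.41, CLCA2 -2.4, EDARADD -2.24 and NID1 -1.41 against fetal muscle. Their adjusted p in limma ran from 8.86e-12 (NID1 against fattening liver) to 0.0492 (ATP6V0D2 against fattening liver).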

How the results depend on the processing

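The count of called probes (427, with 209 higher and 218 lower in LWDM fetuses) was 244 (132 and 112) with all 12 arrays, 147 (88 and 59) with slide as a fixed block, 176 (102 and 74) after normexp and loess, 182 (106 and 76) with the Cy3 channel alone, and 287 (142 and 145) for probes above background on all 11 arrays. These alternatives use an array like the control, 1 LWDL array against 2 LWDM arrays, another background correction, 1 dye, and fewer probes, in that order. The share of calls higher in LWDM was 48.9%, against 59.9% with slide as a fixed block, 58% after normexp and loess and 58.2% with Cy3 alone. Leaving out 1 array gave 378 to 464 called probes, with 185 to 243 higher and 193 to 236 lower. Slide as a random block gave 451, the methods' t-test 370, the series values deposited by the authors also 427, 1 fit over all liver arrays 456 and no filter 528. Fetuses of the 2 breed types with the same number did not pair (r of their deviations -0.0797 to 0.131 over 5 pairs, 1 of which correlated best with its own number), and a replicate block gave 394 called probes. The interactions with suckling liver (479) were 279 with all fetal liver arrays and 263 after normexp and loess, with 396 to 522 when 1 array was left out. Those with fattening liver (951) were 377 after normexp and loess and 844 to 1014, and those with fetal muscle (452) were 252, 148 and 329 to 498, and 594 with a replicate block over fetuses (correlation 0.16, r of liver and muscle with the same number 0.0729 to 0.269). Of 107 called genes named by rule, 81 remained called in every fit that left out 1 array, whereas 56 were lost after normexp and loess, 60 with Cy3 alone, 83 with slide as a fixed block 11 with the replicate block and 5 in 1 fit over all liver arrays (CAMP, ESM1, HBE1, IGFBP1 and TCN1), and 48 of the 96 tested with all 12 arrays. Of 17 called probes named outside the rule, 11 were lost after normexp and loess, 11 with Cy3 alone, 10 with slide as a fixed block and 5 with all 12 arrays. The difference changed sign for CYP2C18 (-0.11) and ESM1 (0.084) with LWDL replicate 2 and for SDR16C5 (-0.052) with Cy3 alone. The cause of these changes was not tested. Dim probes limit the sizes given, since 27 called probes were above background on no LWDL array and 20 on no LWDM array.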

Other observations

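Of the 193 called genes matched to RefSeq (Sscrofa11.1), 7 pairs were neighbors with at most 2 genes between them, and 5 pairs had the same direction. NID1 (-4.72) and EDARADD (-3.84) were both lower in LWDM fetuses, as were COIL (-2.30) and SCPEP1 (-1.01), LEAP2 (-2.84) and AFF4 (-1.45), and GLRX5 (-1.67) and CLMN (-1.37). LUC7L3 (1.00) and TOB1 (1.77) were both higher in LWDM fetuses. TOB1 and NME1 (-1.66) and SLC9B1 (1.38) and BDH2 (-1.33) had opposite directions. SCPEP1 (-0.68), NME1 (-0.98) and TOB1 (0.66) were under 2-fold after normexp and loess, and SCPEP1 (-0.89) and TOB1 (1.01, adjusted p = 0.471) were not called with LWDL replicate 2. SCPEP1 was also under 2-fold without LWDL replicate 1 (-0.90), 5 (-0.94) or 6 (-0.96) or LWDM replicate 3 (-0.94). With slide as a fixed block NME1 (-0.91) and SCPEP1 (-1.35, adjusted p = 0.103) were not called. Genes other than those named in the report were chosen here by position, after their values were known.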
